A study of Mus musculus with 121 samples.

Results

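The late state of the rTg4510 line, a mouse model of tau pathology, was described by comparing the entorhinal cortex of transgenic (TG) mice with that of their wild-type (WT) littermates at 8 months of age. All the libraries that the labels give as TG or WT of this line at 8 months were taken, which made 15 mice, 7 TG and 8 WT, of the 59 mice of the line and the 121 mice of the whole series. Every mouse was female, of a mixed 129S6/SvEvTac + FVB/NCrl background, and was perfused with PBS before the left entorhinal cortex was removed. TG mice were bi-transgenic: they came from crossing heterozygous carriers and held both a tau responder, which encodes human tau with the P301L mutation, and a tTA effector, whose CaMKIIα promoter is active in excitatory forebrain neurons. WT mice are labelled as wild type. The human tau, the tTA protein and the deletions that both transgenes made where they integrated therefore all separate the groups, and their effects cannot be told apart. Libraries were stranded mRNA libraries sequenced on a HiSeq2500, 1 per mouse, and the measure was the count of fragments per gene.

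The entorhinal cortex links the neocortex to the hippocampus and is among the first regions in which tau aggregates in Alzheimer's disease. Tau binds microtubules in axons, and mutant tau forms aggregates inside neurons. Microglia, the resident macrophages of the brain, and astrocytes, which support synapses and vessels, both change their transcription around diseased neurons: microglia lower their resting markers and raise receptors such as Trem2 with lysosomal, lipid and antigen-presenting genes, whereas astrocytes raise the filament gene Gfap. Excitatory neurons use glutamate, inhibitory neurons use GABA, and both release transmitter from vesicles onto receptors held in a postsynaptic scaffold.

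At 8 months 5356 of the 18943 genes tested (28.3%) differed between TG and WT mice at a false discovery rate (FDR) under 0.05 in edgeR's quasi-likelihood F test, with 2802 higher (14.8%) and 2554 lower (13.5%) in TG mice. The higher side reached further. A change of more than 2-fold was seen for 713 of the higher genes and 149 of the lower genes, and one of more than 4-fold for 179 and 29. The median log2 fold change was 0.57 over the higher genes, −0.34 over the lower genes and 0.01 over all genes tested. Levels are given below as normalized counts, which are counts divided by the size factor of each library and are not adjusted for gene length. The lower genes were the more abundant in WT mice, with a median normalized count of 893 against 125 for the higher genes and 158 for all genes, and their median exon lengths were 3163, 2862 and 2596 bases. Values of the 7 TG and 8 WT mice did not overlap for 818 of the higher genes (4.32% of those tested) and 801 of the lower genes (4.23%). Total counts ran from 10634658 to 13631397 in TG mice and from 8333586 to 13285019 in WT mice (difference of the means 7.77%, two-sided exact permutation test, p = 0.21). The split of the calls depended on the scaling: 52.3% of them were higher in TG mice with TMM, and 72.3% (4047 higher, 1551 lower) with library size alone, which moved the median of all genes to 0.10. In bulk tissue, fewer cells of a type and less RNA per cell cannot be told apart, and the same holds for more cells and more RNA.

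**Figure D1:**
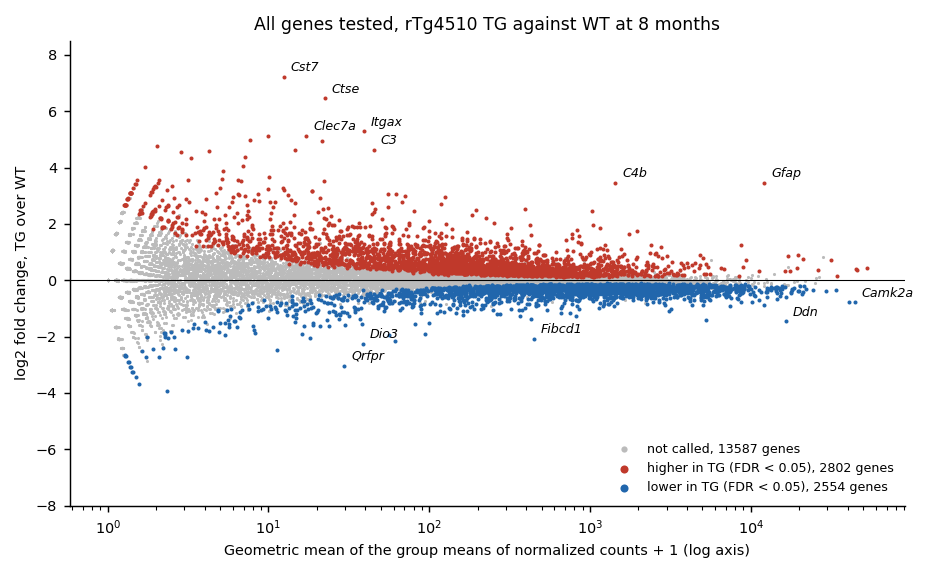
Each point is a gene tested at 8 months, with the geometric mean of the 2 group means of normalized counts plus 1 on the x axis (log scale) and the log2 fold change of TG over WT mice on the y axis. Red points (2802 genes) were higher and blue points (2554 genes) lower at an FDR under 0.05. Red points reach a log2 fold change of 7.22 (Cst7), while the labelled blue gene farthest from 0 is Qrfpr at −3.03.

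The genes at the transgenes came first, as they check the labels. Mouse Mapt, whose human counterpart is the transgene, ran between 6600 and 7839 in TG mice (median 7264), against 6647 to 7280.1 in WT mice with a median of 7068 (log2 fold change = 0.06, SE 0.0488, FDR = 0.408). It was not called here, and was called with library size alone. Across all its samples of this line the study reports elevated Mapt in TG mice, which it relates to the high homology of both genes. Counts of Mapt may therefore mix reads of the human and mouse transcripts, and measure neither alone. Prnp, the prion protein gene that lends exons to the tau transgene, ranged between 20335 and 26518 in TG mice (median 21956), against 11894 to 13696 in WT mice with a median of 12616 (log2 fold change = 0.84, SE 0.0623, FDR = 2.97e-16), with no overlap. Of the genes inside the known deletions, Esyt2, a tether between the endoplasmic reticulum and the plasma membrane, lay between 318 and 405 in TG mice (median 372), against 720.3 to 881 in WT mice with a median of 761 (log2 fold change = −1.07, SE 0.0607, FDR = 5.05e-21). Ptprn2, a protein of secretory granules, ran between 2899 and 3751 in TG mice (median 3223), against 7637 to 9212 in WT mice with a median of 8793 (log2 fold change = −1.43, SE 0.0917, FDR = 1.05e-18). Fgf14, which regulates sodium channels, ranged between 174 and 259 in TG mice (median 206), against 326 to 444 in WT mice with a median of 365 (log2 fold change = −0.78, SE 0.111, FDR = 1.17e-07). Wdr60 (log2 fold change = −0.90, FDR = 1.7e-06) and Ncapg2 (log2 fold change = −0.98, FDR = 8.99e-07) were lower as well, the latter with 1 TG mouse at 60 normalized counts inside the WT range. Vipr2, which lies beside this block, had a log2 fold change of 0.11 and was not called. For Prnp, Esyt2, Ptprn2, Fgf14 and Wdr60 all 15 libraries thus fell on the side of their label.

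The largest changes were taken by a rule: among genes called, without overlap and with at least 50 normalized counts on average in the higher group, the 10 farthest from 0 in each direction. Cst7 (chromosome 2, 150570415 to 150578944, GRCm38), a cystatin that inhibits lysosomal proteases, ran from 38.5 to 159.6 normalized counts in TG mice and reached at most 1.47 in WT mice (log2 fold change = 7.22, SE 0.673, FDR = 2.25e-12). Its raw counts summed to 724 in TG mice and 4 in WT mice, of which 4 had none, so that the size of this change is poorly bounded. Ctse (chromosome 1, 131638314 to 131675507), an aspartic protease, summed to 1301 and 14 counts, and 3 WT mice had none (log2 fold change = 6.46, SE 0.557, FDR = 2.13e-13). Itgax (chromosome 7, 128129568 to 128150657), the integrin chain CD11c, lay between 116 and 317 in TG mice (median 216), against 3.19 to 10.3 in WT mice with a median of 5.5 (log2 fold change = 5.28, SE 0.383, FDR = 5.77e-16). Clec7a (chromosome 6, 129461591 to 129472777), the receptor dectin-1, ran between 40.2 and 131 in TG mice (median 81.4), against 1.03 to 4.4 in WT mice with a median of 2.15 (log2 fold change = 5.13, SE 0.425, FDR = 2.54e-14). Cd22 (chromosome 7, 30865404 to 30880342), an inhibitory sialic acid receptor, ranged between 25.6 and 92.9 in TG mice (median 59.8), against 0 to 10.8 in WT mice with a median of 1.08 (log2 fold change = 4.61, SE 0.453, FDR = 6.19e-12). In each of these genes every TG mouse lay above every WT mouse, as the rule requires.

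The other 5 of the higher genes were Ly9 (chromosome 1, 171588613 to 171607360; log2 fold change = 4.94, FDR = 3.55e-16), a leukocyte surface receptor, Serpinf2 (chromosome 11, 75431736 to 75439501; log2 fold change = 3.53, FDR = 1.66e-09), which inhibits plasmin, Gfap (chromosome 11, 102887336 to 102897200), C3 (chromosome 17, 57203973 to 57228136) and C4b (chromosome 17, 34728381 to 34743897). The last 3 are described with their groups.

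On the lower side, Qrfpr (chromosome 3, 36179426 to 36222275), a receptor for RF-amide peptides, lay between 5.27 and 14.5 in TG mice (median 9.63), against 58.6 to 116 in WT mice with a median of 76 (log2 fold change = −3.03, SE 0.299, FDR = 7.73e-12). Dio3 (chromosome 12, 110279230 to 110281097), which inactivates thyroid hormone, ran between 3.03 and 34.1 in TG mice (median 16.1), against 56.4 to 102 in WT mice with a median of 86.2 (log2 fold change = −2.25, SE 0.463, FDR = 0.000139). Gpr101 (chromosome X, 57496668 to 57503757), an orphan receptor, ranged between 17 and 59 in TG mice (median 26.9), against 73.6 to 199 in WT mice with a median of 122 (log2 fold change = −2.17, SE 0.423, FDR = 6.39e-05). The WT medians of all 3 lay below the median count of all genes, and, as the rule requires, no TG mouse reached the lowest WT mouse. Fibcd1 (chromosome 2, 31813290 to 31846005), an acetyl-binding receptor and a marker of hippocampal CA1, lay between 117 and 388 in TG mice (median 182), against 609 to 1395 in WT mice with a median of 799 (log2 fold change = −2.08, SE 0.315, FDR = 7.57e-07). Ngb (chromosome 12, 87097531 to 87102539), the oxygen-binding neuroglobin, ran between 38.5 and 59 in TG mice (median 44.4), against 105 to 199 in WT mice with a median of 131 (log2 fold change = −1.56, SE 0.217, FDR = 8.39e-08). Htr5b (chromosome 1, 121509773 to 121528465), a serotonin receptor, ranged between 11.6 and 23.6 in TG mice (median 16.2), against 26.4 to 83.1 in WT mice with a median of 44.7 (log2 fold change = −1.60, SE 0.236, FDR = 2.54e-07). The other 4 were 4930555I21Rik (chromosome 4, 135495987 to 135537803; −1.93), Sec14l3 (chromosome 11, 4064853 to 4078990; −1.90), the lipoxygenase Alox12b (chromosome 11, 69157072 to 69169791; −1.54) and Dkkl1 (chromosome 7, 45207525 to 45211883; −1.51), each given with its log2 fold change.

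Genes were then grouped in 34 lists of cell types and pathways, chosen with earlier results of these data known. They hold 767 different genes, some in more than 1 list, and 761 of these were tested, with 4 under the filter on low counts and 2 not analysed here. A number in brackets after a gene with no other name is its log2 fold change, TG over WT. Each list is given by its counts, read against the 14.8% and 13.5% of all genes that were called higher and lower, and by its median log2 fold change, read against 0.01.

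Of 30 genes that mark disease-associated microglia, 28 were higher in TG mice and 0 lower (median log2 fold change 1.73). Of the 30, 23 were higher without overlap, against 4.32% of all genes tested. Trem2, the lipid-sensing receptor of these cells, lay between 363 and 814 in TG mice (median 592), against 134 to 245 in WT mice with a median of 155 (log2 fold change = 1.84, SE 0.213, FDR = 1.37e-09). Its signalling partner Tyrobp ran between 580.4 and 1068 in TG mice (median 784), against 165 to 344 in WT mice with a median of 201 (log2 fold change = 1.95, SE 0.189, FDR = 8.29e-12). For both genes the lowest TG mouse stood above the highest WT mouse. Cd68, a protein of the lysosomal membrane of macrophages, ranged between 371 and 635 in TG mice (median 526), against 94.5 to 167 in WT mice with a median of 124 (log2 fold change = 2.04, SE 0.143, FDR = 8.34e-17). Ctsz, a lysosomal cathepsin, lay between 903 and 1575 in TG mice (median 1276), against 400.4 to 568 in WT mice with a median of 446 (log2 fold change = 1.51, SE 0.131, FDR = 1.57e-13). Apoe, the lipid carrier that astrocytes also make, ran between 23591 and 53510.2 in TG mice (median 40094), against 20636 to 28966 in WT mice with a median of 24396, so the groups overlapped although it was called (log2 fold change = 0.72, SE 0.148, FDR = 0.00013). Of the secreted factors, the chemokines Ccl3 (5.12), Ccl4 (4.97) and Ccl6 (2.36) were higher; Ccl3 ran from 34.9 to 51.6 in TG mice and from 0 to 2.9 in WT mice. The phagocytic and lysozyme genes Lgals3 (2.18), Gpnmb (1.80) and Lyz2 (2.52), the oxidase chain Cybb (2.75) and the inhibitory receptor Lilrb4a (3.18) were higher as well. The 2 members not called were the metalloprotease inhibitor Timp2 (−0.15) and the pyrophosphate transporter Ank (−0.04).

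Markers of resting microglia split. Of 18, 11 were higher, 1 lower and 6 not called (median 0.58). Csf1r, the receptor on which microglia depend for survival, ranged between 2739 and 4524 in TG mice (median 3389.8), against 1531 to 2323 in WT mice with a median of 1753 (log2 fold change = 0.96, SE 0.135, FDR = 1.22e-07). Siglech (log2 fold change = 0.80, FDR = 1.06e-07), Cx3cr1 (log2 fold change = 0.81, FDR = 3.61e-07) and Tgfbr1 (log2 fold change = 0.89, FDR = 2.59e-07), a sialic acid receptor and the receptors for fractalkine and TGF-β, were higher too. By contrast, P2ry12, the ADP receptor that steers microglial processes to injury, lay between 444 and 554 in TG mice (median 517), against 387 to 616 in WT mice with a median of 528 (log2 fold change = −0.01, SE 0.119, FDR = 0.988). Tmem119 ran between 426 and 738 in TG mice (median 549), against 363 to 603 in WT mice with a median of 427 (log2 fold change = 0.30, SE 0.137, FDR = 0.0984). Selplg (0.05), P2ry13 (0.28), Fcrls (0.42) and Itgam (0.27) were not called either. Slc2a5, a fructose transporter, was the one member that fell, between 11.6 and 24.9 in TG mice (median 20.5), against 22.1 to 78.1 in WT mice with a median of 39.7 (log2 fold change = −1.16, SE 0.221, FDR = 3.73e-05). Within this list, then, the receptors for growth factor, fractalkine and TGF-β were higher while the purinergic receptors did not pass the test. Of 18 proliferation genes 1 was called, Mcm3 (log2 fold change = 0.66, FDR = 0.000351), a subunit of the replicative helicase, and Mki67 (−0.23), Top2a (0.17) and Cdk1 (0.43) were not.

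Signals between neurons and microglia differed on both sides. Of 17 ligands and receptors 9 were higher and 3 lower (median 0.66). The 2 ligands of Csf1r moved in opposite directions: Csf1 ranged between 427 and 717 in TG mice (median 609.5), against 254 to 320.1 in WT mice with a median of 286 (log2 fold change = 1.09, SE 0.111, FDR = 1.25e-11), whereas Il34, made by neurons, lay between 534 and 680.4 in TG mice (median 633), against 654 to 924 in WT mice with a median of 784 (log2 fold change = −0.35, SE 0.0763, FDR = 0.00023). Cx3cl1, the neuronal ligand fractalkine, ran between 5173 and 6210.4 in TG mice (median 5962), against 7489 to 9340.5 in WT mice with a median of 8045 (log2 fold change = −0.50, SE 0.0975, FDR = 4.67e-05), while its receptor Cx3cr1 was higher. Cd200, a neuronal ligand that restrains microglia, was lower (log2 fold change = −0.26, FDR = 0.0333), a call lost without TG mouse 2 or 5 or WT mouse 3, 5, 6 or 7 (FDR up to 0.0822), and its receptor Cd200r1 had a log2 fold change of 0.78 without a call. Tgfb1 (0.67) and Tgfbr2 (log2 fold change = 0.97, FDR = 7.58e-09) were higher. So were Axl (0.66) and Mertk (0.29), receptors through which phagocytes bind dying cells, and their ligand Pros1 (log2 fold change = 1.05, FDR = 2.21e-10); Gas6 (0.09), the other ligand, was not called. Cd47 (−0.03) and its receptor Sirpa (−0.03) were not called.

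Complement, the protein cascade that tags synapses and debris for removal, was higher in 15 of 22 genes and lower in 0 (median 0.96). The initiating chains C1qa (log2 fold change = 1.87, FDR = 4.78e-10), C1qb (log2 fold change = 1.96, FDR = 1.48e-11) and C1qc (log2 fold change = 1.77, FDR = 1.97e-09) were higher without overlap. C4b ranged between 2724 and 6554 in TG mice (median 4979), against 301 to 828 in WT mice with a median of 383 (log2 fold change = 3.46, SE 0.251, FDR = 1.13e-15). C3 lay between 53 and 539 in TG mice (median 182), against 1.47 to 22.7 in WT mice with a median of 6.61 (log2 fold change = 4.64, SE 0.376, FDR = 1.84e-14). C3 spread widely among TG mice, and WT mouse 5 was the highest WT mouse for both genes. The receptors C3ar1 (log2 fold change = 3.06, FDR = 2.97e-16), C5ar1 (0.90) and Itgb2 (log2 fold change = 1.71, FDR = 6.37e-12) were higher, as were the regulators Serping1 (1.17), Cfi (1.88) and Clu (log2 fold change = 0.88, FDR = 6.9e-09). Cfb (0.00), C2 (0.48), Cfp (0.26), Cd55 (0.07), C1s1 (0.79), Itgam (0.27) and Vsig4 (at 0 in every WT mouse) were not called. Values of C4b are uncertain where its reads are shared with the near-identical C4a.

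Innate sensors and Fc receptors were higher in 22 of 23 genes (median 1.25). Tlr1, which pairs with Tlr2 to bind bacterial lipoproteins, ran between 20.5 and 43.2 in TG mice (median 34), against 2.2 to 9.73 in WT mice with a median of 3.35 (log2 fold change = 3.02, SE 0.299, FDR = 6.04e-12). Cd14, the co-receptor of Tlr4, ranged between 125 and 235 in TG mice (median 195), against 21.6 to 69.2 in WT mice with a median of 30.1 (log2 fold change = 2.44, SE 0.245, FDR = 1.47e-11). The rise covered the surface receptors Tlr2 (2.61), Tlr4 (1.29) and Tlr6 (1.16) and the endosomal receptors Tlr3 (0.67), Tlr7 (1.83), Tlr9 (1.37) and Tlr13 (1.25). Fcgr3, a receptor for immunoglobulin G, lay between 413 and 646 in TG mice (median 512), against 166 to 223 in WT mice with a median of 177 (log2 fold change = 1.49, SE 0.14, FDR = 1.61e-12). Among the relays behind these receptors, Syk (0.82), Plcg2 (log2 fold change = 1.01, FDR = 1.13e-09), the adaptor Blnk (log2 fold change = 1.51, FDR = 1.88e-15) and Myd88 (0.61) were higher. Of the inflammasome genes Nlrp3 (0.91) and Pycard (1.16) were higher and Casp1 (0.02), the protease they activate, was the one member not called.

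Lysosomal genes were higher in 25 of 32 (median 0.55). Ctsd, an aspartic protease, ran between 9533 and 16008 in TG mice (median 13834), against 5012 to 7056 in WT mice with a median of 5493 (log2 fold change = 1.25, SE 0.122, FDR = 5.88e-12). Man2b1, which trims mannose from glycoproteins, ranged between 1036 and 1706 in TG mice (median 1342), against 471 to 667 in WT mice with a median of 545 (log2 fold change = 1.28, SE 0.12, FDR = 1.8e-12). Ctsc, Ctsh and Ctss, cathepsins abundant in myeloid cells, had log2 fold changes of 1.49, 1.33 and 1.75, above those of the membrane proteins Lamp1 (0.49) and Lamp2 (0.82) and of Tfeb (0.50), the factor that drives lysosomal genes. Ctsf (−0.01), Gla (0.17), Glb1 (0.08), Mcoln1 (−0.02), Neu1 (0.05), Npc1 (0.22) and Psap (0.11) were not called. Npc2, the partner of Npc1 in moving cholesterol out of the lysosome, was higher, between 1270.2 and 1934 in TG mice (median 1633), against 804 to 1054 in WT mice with a median of 878 (log2 fold change = 0.89, SE 0.107, FDR = 2.11e-09).

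The element that binds Tfeb, with the letters TCACGTGA on both strands (it holds the E-box CACGTG), was found in the 250 bases before the start of 4 of 25 lysosomal genes with a promoter in RefSeq (16%), against 0.907% of 27025 promoters. Of the 4, Ctsa and Ctsd were higher and Gla and Mcoln1 were not called. The windows of 2 are shown as the sequence that the called genes share, in GRCm38.p6 (Ctsa, chr2:164833735-164833772, plus strand; Ctsd, chr7:142387894-142387951, minus strand), read 5′ to 3′ along the gene with the element in capitals:
Ctsa: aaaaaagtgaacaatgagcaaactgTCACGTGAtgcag
Ctsd: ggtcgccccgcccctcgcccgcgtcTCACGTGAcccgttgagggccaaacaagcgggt

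The genes of antigen presentation were higher in 15 of 21 and lower in 0 (median 1.05). B2m, the invariant chain of MHC class I, lay between 1188 and 1968 in TG mice (median 1853), against 665 to 1204 in WT mice with a median of 766 (log2 fold change = 1.12, SE 0.132, FDR = 1.56e-09). H2-D1, a class I heavy chain, ran between 1308 and 2333 in TG mice (median 1985), against 613 to 1318 in WT mice with a median of 744. H2-K1, another such chain, ranged between 471 and 884 in TG mice (median 829), against 204 to 602 in WT mice with a median of 289. Near-identical relatives of both can share their reads. In all 3 the groups overlapped at the edges: WT mouse 5 lay above TG mouse 6, and for H2-K1 above TG mouse 1 as well. The peptide transporters Tap1 (0.81) and Tap2 (0.66), the immunoproteasome subunits Psmb8 (1.24) and Psmb9 (1.11) and the class I activator Nlrc5 (1.86) were higher. On the class II side Cd74, the invariant chain (1.15), and H2-DMb1 (1.14) were higher, while H2-Aa lay between 96.4 and 451 in TG mice (median 195), against 25.7 to 360.1 in WT mice with a median of 119 without a call (log2 fold change = 0.72, SE 0.371, FDR = 0.15), and neither H2-Ab1 (0.67), H2-Eb1 (0.69) nor the activator Ciita (0.36) was called. Both costimulatory ligands were higher, Cd86 (log2 fold change = 1.68, FDR = 4.77e-09) and Cd80 (1.26).

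Genes induced by interferon were higher in 24 of 26 (median 1.11), with Stat2 (0.02) and Zbp1 (1.56) not called. Oasl2, of the oligoadenylate synthetase family, ran between 58.1 and 143 in TG mice (median 95.4), against 24.9 to 48.3 in WT mice with a median of 27.9 (log2 fold change = 1.57, SE 0.223, FDR = 1.2e-07). Ifit1, which binds viral RNA, ranged between 24.2 and 105 in TG mice (median 53.5), against 14.7 to 28.1 in WT mice with a median of 20.7 (log2 fold change = 1.45, SE 0.218, FDR = 4.06e-07). Xaf1 lay between 163 and 232 in TG mice (median 218), against 64.9 to 124 in WT mice with a median of 94.5 (log2 fold change = 1.13, SE 0.153, FDR = 4.01e-08) and Ifi35 ran between 60 and 99 in TG mice (median 71.8), against 22.4 to 48.7 in WT mice with a median of 31.5 (log2 fold change = 1.11, SE 0.173, FDR = 8.76e-07). The transcription factors Irf7 (1.10) and Irf9 (0.47) and the GTPases Gbp2 (1.37), Gbp3 (1.03) and Mx1 (1.46) were higher. Cxcl10, a chemokine that draws T cells, ranged between 11.1 and 94.8 in TG mice (median 24.6), against 1.06 to 6.94 in WT mice with a median of 3.12 (log2 fold change = 3.20, SE 0.602, FDR = 3.3e-05). Spread within TG mice was large for this list, and its median level in TG mice ran from 0.55 to 1.69 on the log2 scale above the WT mean.

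The interferon-stimulated response element was searched as GAAA and GAAA 2 bases apart, on both strands. It was found in the 250 bases before the start of 11 of 19 interferon genes with a promoter in RefSeq (57.9%), against 3.46% of all promoters; 10 of the 11 were higher and Stat2 was not called. In antigen presentation it was found for 2 of 15 (13.3%), B2m and H2-T23, both of which were higher. The windows of 4 interferon genes are shown because those genes rose together, in GRCm38.p6 (Ifit1, chr19:34640760-34640819, plus strand; Isg15, chr4:156200862-156200921, minus strand; Oas1a, chr5:120907526-120907570, minus strand; Gbp3, chr3:142559974-142560033, plus strand), with every base of an element, on either strand, in capitals:
Ifit1: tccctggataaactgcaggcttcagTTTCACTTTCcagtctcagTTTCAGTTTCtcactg
Isg15: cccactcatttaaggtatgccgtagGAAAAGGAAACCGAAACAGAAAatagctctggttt
Oas1a: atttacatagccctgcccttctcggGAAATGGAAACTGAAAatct
Gbp3: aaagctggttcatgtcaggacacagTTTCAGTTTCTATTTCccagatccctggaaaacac

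A site of the myeloid factor PU.1, GAGGAAGT on both strands, was found before 1 of 23 genes of disease-associated microglia (4.35%, Spp1) and 2 of 19 innate sensors (10.5%, Tlr1 and Pycard), against 2.79% of all promoters.

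Genes of reactive astrocytes were higher in 28 of 33 and lower in 0 (median 1.24). Gfap, the intermediate filament, lay between 25092 and 53439 in TG mice (median 43838), against 2885 to 4359 in WT mice with a median of 3629 (log2 fold change = 3.46, SE 0.222, FDR = 1.36e-17). Osmr, a receptor for oncostatin M, ran between 206 and 584 in TG mice (median 432), against 52.9 to 105 in WT mice with a median of 84.7 (log2 fold change = 2.33, SE 0.192, FDR = 2.63e-14). Aspg, an asparaginase, ranged between 215 and 469 in TG mice (median 385), against 19.5 to 71.3 in WT mice with a median of 41.9 (log2 fold change = 2.97, SE 0.262, FDR = 4.06e-13). These 3 genes were higher in every TG mouse than in any WT mouse. Vim (1.31), Serpina3n (1.19), Steap4 (2.60), Cd109 (1.58), Timp1 (2.44), Tgm1 (4.06), Ptx3 (3.57) and Clcf1 (2.02) were higher. Lcn2 (1.03), Hspb1 (0.21), S100a10 (−0.13), B3gnt5 (0.10) and Slc10a6 (1.28) were not called. Several members, such as Gbp2, Psmb8 and H2-D1, also stand among the interferon and antigen-presenting genes.

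General markers of astrocytes were higher in 13 of 20 and lower in 1 (median 0.35), a smaller shift than in the reactive genes. Aqp4, the water channel of perivascular endfeet, lay between 3046 and 4957 in TG mice (median 3948), against 1928 to 2679 in WT mice with a median of 2189 (log2 fold change = 0.86, SE 0.122, FDR = 1.32e-07). Gjb6, a gap junction protein, ran between 1376 and 1992 in TG mice (median 1551), against 772 to 1081 in WT mice with a median of 967 (log2 fold change = 0.79, SE 0.128, FDR = 2.01e-06). S100b (log2 fold change = 0.51, FDR = 5.02e-05), Slc1a2 (0.44), which clears glutamate, Kcnj10 (0.45), which clears potassium, and Sox9 (0.37) were higher. Glul (−0.04), which turns glutamate into glutamine, and Slc1a3 (0.21) were not called. Mfge8, a bridge between phagocytes and dying cells, was the member that fell, between 2583 and 3577 in TG mice (median 3263), against 3829 to 5952 in WT mice with a median of 4718 (log2 fold change = −0.65, SE 0.122, FDR = 2.53e-05).

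**Figure D2:**
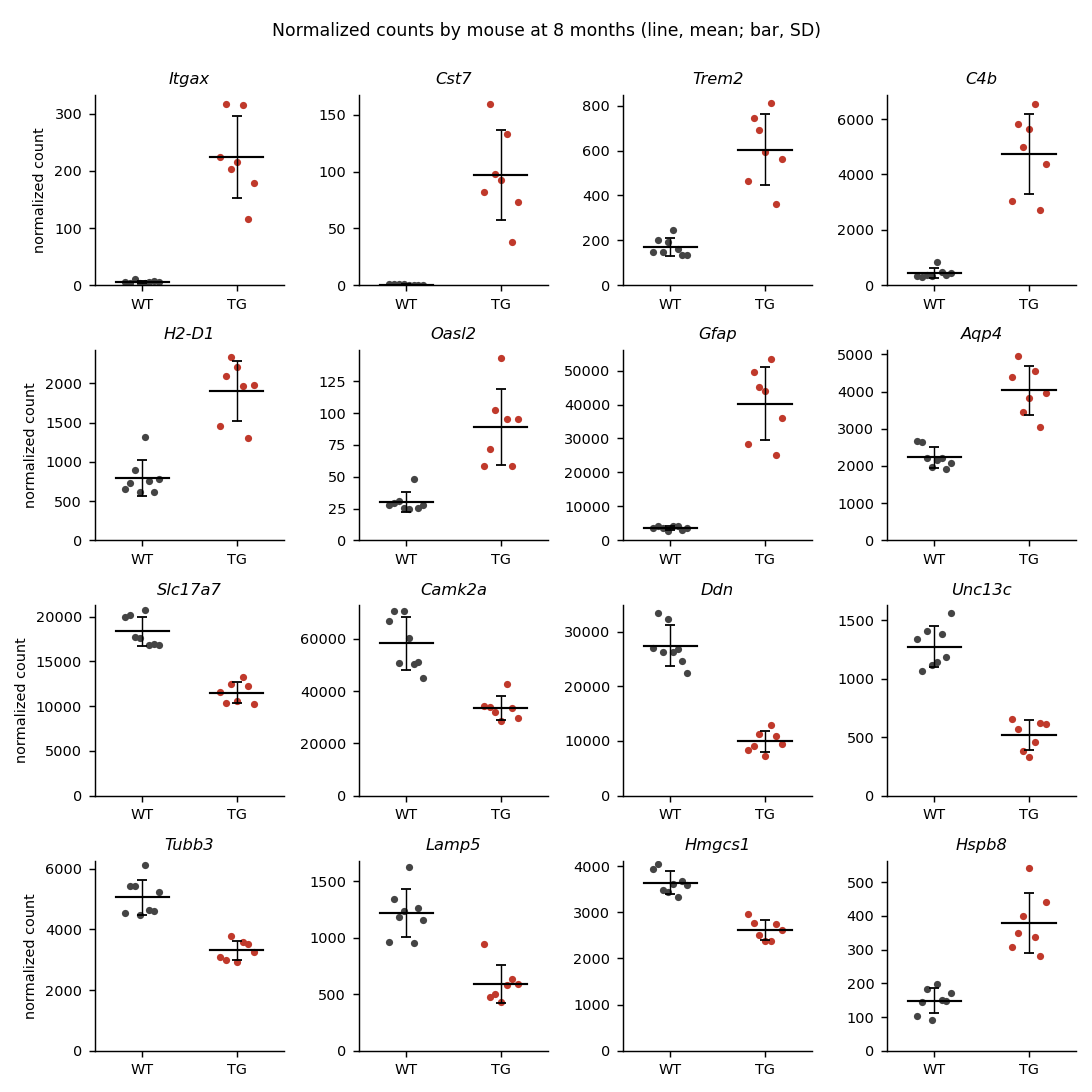
Normalized counts (y axis, from 0) of 16 genes in each WT mouse (grey, n = 8) and TG mouse (red, n = 7) at 8 months, with the mean as a line and the SD as a bar. The groups are apart for 15 of the 16 genes, while the values of H2-D1 overlap. These genes were picked for display with the results known. Of all genes tested, 4.32% were called higher and 4.23% lower without overlap. TG mouse 1 is the highest TG mouse for Lamp5, at 940.

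Oligodendrocyte genes were less uniform. Of 20 genes of myelinating cells 7 were higher and 0 lower (median 0.37). Trf, the iron carrier transferrin, ranged between 2129 and 4066 in TG mice (median 3319.6), against 1413 to 1967 in WT mice with a median of 1682 (log2 fold change = 0.98, SE 0.184, FDR = 3.58e-05). Myrf, the factor that drives myelin genes, lay between 601 and 982 in TG mice (median 717), against 366 to 526 in WT mice with a median of 452 (log2 fold change = 0.79, SE 0.179, FDR = 0.000519), and Aspa (log2 fold change = 0.99, FDR = 5.22e-05), Gsn (log2 fold change = 0.76, FDR = 4.04e-05), Opalin (0.91), Mobp (0.64) and Cnp (0.48) were higher as well. The myelin genes Mbp (0.46), Mog (0.36) and Mag (0.52) were not called. Of 12 genes of precursors and newly formed cells 2 were higher and 1 lower (median 0.00): Bcas1, which marks cells that start to myelinate, ran between 1493 and 2230.1 in TG mice (median 1809.9), against 739 to 1090.1 in WT mice with a median of 891 (log2 fold change = 1.06, SE 0.18, FDR = 6.09e-06), while Vcan was higher (log2 fold change = 0.27, FDR = 0.0346) and Pdgfra lower (log2 fold change = −0.27, FDR = 0.0184). The call of Vcan was lost without TG mouse 1, 2, 4 or 5 or WT mouse 3, 5 or 8 (FDR up to 0.11), and that of Pdgfra with library size alone. Leaving out single mice left 1 or 2 of the 12 genes higher and 1 or 2 lower. Without TG mouse 1 and WT mouse 1 together, 1 was higher and 0 lower, so that Pdgfra was not called there either.

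Lists of cells that a dissection could add or lose were read beside the results above. Of 14 endothelial genes 2 were higher and 1 lower (median 0.17), with summed normalized counts from 7260 to 9310 in TG mice and from 6790 to 8910 in WT mice; leaving out single mice gave between 0 (without TG mouse 4 or WT mouse 7) and 4 (without TG mouse 6) higher, the RNA integrity number (RIN) as a covariate 1 and library size alone 5. The lower gene, Egfl7, was not called without TG mouse 1 (FDR = 0.0697), and 0 were lower with library size alone. Of 16 mural and fibroblast genes 6 were higher (median 0.55), among them the contractile genes Acta2, between 204 and 755 in TG mice (median 270.3), against 77.7 to 221 in WT mice with a median of 179, and Myh11, between 232 and 652 in TG mice (median 283), against 139.5 to 301 in WT mice with a median of 179; TG mouse 4 held the highest value of both, and without it neither was called (FDR = 0.0973 and 0.172) and 1 of the 16 genes was. The call of Myh11 was also lost without WT mouse 1, 2, 4 or 5 (FDR up to 0.0577). Leaving out TG mouse 7 gave 2 higher genes in this list, and leaving out WT mouse 2 or 4 gave 3. Choroid plexus genes had 1 of 10 called (median −0.29), Kcnj13, lost without TG mouse 1, 3, 4 or 7 or WT mouse 1, 2, 4, 6 or 7 (FDR up to 0.135), and Ttr, its main marker, ranged between 22.8 and 921 in TG mice (median 35), against 4.96 to 2236 in WT mice with a median of 51.7. Without TG mouse 1 and WT mouse 1 together, 0 of the 10 choroid plexus genes were higher and 1 was lower (median −0.73). Blood and infiltrating leukocyte genes had 1 of 14 called (median 0.86): Cd8a, of cytotoxic T cells, lay between 0 and 5.13 in TG mice (median 4.15), against 0 to 1.81 in WT mice with a median of 0 (log2 fold change = 2.59, SE 0.722, FDR = 0.0043), and DESeq2 did not call it (FDR = 0.0676). Without TG mouse 3, 4 or 6 or WT mouse 4 or 8, 2 of the 14 were higher. The haemoglobin gene Hbb-bs ran between 39.4 and 588 in TG mice (median 155), against 16.2 to 159.7 in WT mice with a median of 89.7 (log2 fold change = 1.23, SE 0.631, FDR = 0.147) and was not called. Hba-a1 and Hba-a2, near-identical copies whose shared reads may not have been counted, were at 0 in all 15 mice, and so was the B cell gene Ms4a1. Of 15 markers of neighbouring regions 4 were higher and 3 lower (median 0.27, 0.15 without TG mouse 6 and 0.49 without TG mouse 1 and WT mouse 1, which share the letter K in the sample ID). The striatal gene Rgs9 (log2 fold change = 0.47, FDR = 0.000224) was higher, Tcf7l2 (log2 fold change = 0.72, FDR = 0.000126), Lef1 (log2 fold change = 0.86, FDR = 2.59e-07) and Prkcd (log2 fold change = 0.98, FDR = 1.91e-08), strong in thalamus, were higher too, and Fibcd1 was lower. The part of dissection in the results was not tested.

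On the neuronal side, 16 of 21 pan-neuronal genes were lower in TG mice and 0 higher (median −0.33). Tubb3, the neuronal β-tubulin, ranged between 2917 and 3766 in TG mice (median 3261), against 4467 to 6103 in WT mice with a median of 4928 (log2 fold change = −0.60, SE 0.0892, FDR = 2.51e-07). Gap43, a growth cone protein, lay between 2602 and 3116 in TG mice (median 2856), against 3722 to 4732 in WT mice with a median of 4258 (log2 fold change = −0.60, SE 0.0865, FDR = 1.65e-07). Thy1 ran between 6782 and 8728 in TG mice (median 7581), against 9102 to 9917 in WT mice with a median of 9841 (log2 fold change = −0.33, SE 0.0547, FDR = 2.5e-06) and the RNA-binding Celf4 ranged between 4001 and 5803 in TG mice (median 4904), against 6181 to 8524 in WT mice with a median of 7349 (log2 fold change = −0.57, SE 0.0801, FDR = 1.04e-07). All 4 were lower in every TG mouse than in any WT mouse. Rbfox3, the nuclear antigen NeuN (−0.32), Map2 (−0.42), Map1a (−0.41), Map1b (−0.33) and Uchl1 (−0.39) were lower too. Snap25 (−0.18), Mapt and the neurofilament chains Nefl (−0.06), Nefm (−0.06) and Nefh (−0.21) were not called. Counts of Mapt may include reads of the human transgene. The summed normalized counts of the list, which the abundant members dominate, ran from 142000 to 169000 in TG mice and from 181000 to 203000 in WT mice.

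Markers of glutamatergic neurons were lower in 12 of 25 and higher in 1 (median −0.38). Slc17a7, the vesicular transporter VGLUT1 that loads glutamate, lay between 10209 and 13216 in TG mice (median 11538), against 16784 to 20718 in WT mice with a median of 17641 (log2 fold change = −0.66, SE 0.0941, FDR = 1.06e-07). Camk2a, the postsynaptic kinase whose promoter also drives the tTA effector, ran between 28401 and 42932 in TG mice (median 33738), against 44923 to 70733 in WT mice with a median of 55898 (log2 fold change = −0.79, SE 0.139, FDR = 1.01e-05). Wfs1, a membrane protein of the endoplasmic reticulum that marks superficial entorhinal and CA1 neurons, ranged between 1761 and 2489 in TG mice (median 2088), against 3769 to 5928 in WT mice with a median of 4135 (log2 fold change = −1.09, SE 0.143, FDR = 2.17e-08). Each of these 3 genes was lower in all TG mice. Reln (−0.64) and Calb1 (−0.80), markers of cell groups in layer II of the entorhinal cortex, and Cux2 (−0.69), of upper layers, were lower. So were Etv1 (log2 fold change = −0.69, FDR = 8.04e-05), of layer V, Bcl11b (−0.41), Nrgn (−0.69), Neurod6 (−0.50) and Bhlhe22 (−0.50). Tbr1, a factor of deep-layer neurons, was the exception, between 1062 and 1433 in TG mice (median 1143), against 755 to 1089 in WT mice with a median of 894 (log2 fold change = 0.39, SE 0.107, FDR = 0.00351). Foxp2 (0.41) and Rorb (0.29) also had positive log2 fold changes, without a call, and Slc17a6 (−0.33), Fezf2 (−0.38), Emx1 (−0.33) and Mef2c (−0.38) were not called.

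Markers of GABAergic neurons were spread around 0, with 3 of 24 higher and 4 lower (median −0.05, and 0.04 with library size alone). Of the GABA-synthesizing enzymes, Gad1 lay between 4381 and 5845 in TG mice (median 4879), against 4913 to 5737 in WT mice with a median of 5158. Gad2 ran between 2360.2 and 3263 in TG mice (median 2649), against 2377 to 2811 in WT mice with a median of 2598, and neither was called. Pvalb, of fast-spiking cells, ranged between 452 and 776 in TG mice (median 518), against 453 to 658 in WT mice with a median of 523 and was not called. The 4 genes that fell were Lamp5, of neurogliaform cells but also of some excitatory cells, between 431 and 939.9 in TG mice (median 579), against 951 to 1621 in WT mice with a median of 1212 (log2 fold change = −1.02, SE 0.227, FDR = 0.000397), the peptide genes Sst (log2 fold change = −0.44, FDR = 0.00936) and Cck (log2 fold change = −0.44, FDR = 0.0087), and the vesicular transporter Slc32a1 (log2 fold change = −0.38, FDR = 0.00773). Vip (log2 fold change = 0.41, FDR = 0.0205), Ndnf (log2 fold change = 0.36, FDR = 0.029) and Dlx1 (log2 fold change = 0.20, FDR = 0.0368) were higher. Each of these calls was lost in some fits that left out 1 mouse. Vip was not called without TG mouse 3 (FDR up to 0.0518). Ndnf was not called without TG mouse 4, 6 or 7 or WT mouse 2 or 4 (FDR up to 0.0788). Dlx1 was not called without TG mouse 2, 3, 4, 5 or 7 or WT mouse 1, 2, 5 or 6 (FDR up to 0.114). In this list 1 of the 24 genes was higher without WT mouse 2 or TG mouse 3, 4 or 7. Summed normalized counts of this list ran from 23000 to 27000 in TG mice and from 26200 to 29100 in WT mice, against from 66000 to 89100 in TG mice and from 103000 to 134000 in WT mice for the glutamatergic list; whether the 2 lists differ from each other was not tested.

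Glutamate receptors and their auxiliary subunits were lower in 18 of 27 and higher in 0 (median −0.36). Grin1, the obligatory subunit of NMDA receptors, lay between 2034 and 2805 in TG mice (median 2342), against 3200.2 to 3836 in WT mice with a median of 3435 (log2 fold change = −0.53, SE 0.0807, FDR = 5.26e-07). Grm2, a presynaptic metabotropic receptor, ran between 458 and 711 in TG mice (median 603), against 945 to 1454 in WT mice with a median of 1073 (log2 fold change = −0.93, SE 0.145, FDR = 1.31e-06). Cacng3, an auxiliary subunit that traffics AMPA receptors, ranged between 640.5 and 998 in TG mice (median 793), against 1242 to 1511 in WT mice with a median of 1327 (log2 fold change = −0.74, SE 0.0984, FDR = 2.17e-08). Other auxiliary proteins, Cnih2 (−0.62), Cnih3 (−0.63) and Cacng8 (−0.45), were lower, whereas the main AMPA subunits Gria1 (−0.15) and Gria2 (−0.20) and the NMDA subunits Grin2a (−0.25) and Grin2b (−0.31) were not called. Among metabotropic receptors Grm3 (−0.36), Grm4 (−0.76), Grm5 (−0.50), Grm7 (log2 fold change = −0.51, FDR = 9.75e-07) and Grm8 (−0.41) were lower too. GABA receptors were lower in 7 of 16 (median −0.22). Gabra3 lay between 1292 and 1783 in TG mice (median 1432), against 2037 to 2522 in WT mice with a median of 2229 (log2 fold change = −0.60, SE 0.0853, FDR = 1.02e-07), and Gabra5 (−0.50) and Gabrd (−0.55), subunits of extrasynaptic receptors, both GABA-B chains Gabbr1 (log2 fold change = −0.21, FDR = 0.0045) and Gabbr2 (log2 fold change = −0.42, FDR = 3.27e-05) and the adhesion protein Nlgn2 (log2 fold change = −0.30, FDR = 3.77e-05) were lower. The synaptic subunit Gabrb2 (−0.17) and the synaptic anchor Gphn (−0.08) were not called.

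The postsynaptic density, the scaffold beneath excitatory synapses, was lower in 23 of 29 genes and higher in 1 (median −0.51). Ddn, the dendritic protein dendrin, ran between 7251 and 12961 in TG mice (median 9387), against 22432 to 33499.6 in WT mice with a median of 26571 (log2 fold change = −1.46, SE 0.119, FDR = 1.54e-14). Dlgap3, an adaptor that stacks on the scaffold, ranged between 1521 and 3019 in TG mice (median 2013), against 3246 to 4714 in WT mice with a median of 4014 (log2 fold change = −0.87, SE 0.151, FDR = 9.3e-06). Shank3, the layer beneath it, lay between 1680.2 and 3158 in TG mice (median 2047), against 3200 to 4604 in WT mice with a median of 3784 (log2 fold change = −0.83, SE 0.127, FDR = 8.43e-07). In all 3 the groups did not overlap. Homer2, which links metabotropic receptors to Shank proteins, ran between 793 and 1061 in TG mice (median 1029), against 1573 to 1968 in WT mice with a median of 1704 (log2 fold change = −0.83, SE 0.0833, FDR = 8.29e-12). Its relatives moved otherwise: Homer3 was higher (log2 fold change = 0.77, FDR = 0.0028) and Homer1 had a log2 fold change of −0.27 without a call. Shank1 (−0.73), Shank2 (log2 fold change = −0.71, FDR = 3.07e-09), Dlgap1 (log2 fold change = −0.36, FDR = 6.15e-08), Dlgap2 (−0.55) and Dlgap4 (−0.54) were lower, and so were Dlg4 (−0.52), which is PSD-95, Dlg2 (−0.36) and Dlg3 (−0.35), but not Dlg1 (−0.12). The spine proteins Synpo (−0.44), Ppp1r9b (−0.59) and Baiap2 (−0.63) were lower. Lrrtm2 (−0.02), Iqsec1 (−0.10) and Sorbs2 (−0.04) were not called.

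Presynaptic release genes were lower in 34 of 41 and higher in 0 (median −0.37). At the active zone, Unc13c, a priming factor, ranged between 332 and 654 in TG mice (median 574), against 1065 to 1567 in WT mice with a median of 1262 (log2 fold change = −1.28, SE 0.164, FDR = 1.43e-08). Rims1, a scaffold that holds vesicles near calcium channels, lay between 1247 and 1943 in TG mice (median 1774), against 2768 to 3576 in WT mice with a median of 2903 (log2 fold change = −0.84, SE 0.0901, FDR = 6.44e-11). Rims2 (log2 fold change = −0.47, FDR = 8.35e-09), Unc13a (−0.41), Bsn (−0.47), Pclo (−0.26) and Erc2 (−0.37) were lower too. Of the vesicle proteins, Syn1, which tethers vesicles to actin, ran between 5106 and 6686 in TG mice (median 5627), against 7347 to 10220.3 in WT mice with a median of 8309 (log2 fold change = −0.56, SE 0.0783, FDR = 8.49e-08), and Syp (−0.45), Sv2a (−0.25), Sv2b (−0.48) and Svop (log2 fold change = −0.60, FDR = 2.21e-07) were lower. Of the fusion machinery Stx1a (−0.76), Vamp2 (−0.31), Cplx2 (−0.55) and the calcium sensor Syt1 (−0.37) were lower. Snap25 (−0.18) was not called, nor were Syt2 (−0.25), Vamp1 (−0.14), Syn3 (−0.02), Synpr (−0.25) and Sv2c (0.21).

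Voltage-gated channels were lower in 28 of 47 and higher in 0 (median −0.30). Among potassium channels Kcnh3 ranged between 697 and 1019.7 in TG mice (median 872), against 1396 to 2032 in WT mice with a median of 1640.5 (log2 fold change = −0.91, SE 0.143, FDR = 1.25e-06). Kcnv1 (−0.84), Kcnip2 (−0.45) and Kcnip4 (−0.45) were lower, while Kcna1 (0.15), Kcna2 (−0.07) and Kcnc1 (0.04), the last typical of fast-spiking cells, were not called. Of the sodium channels Scn2a1 (−0.30), Scn8a (−0.24) and the auxiliary chain Scn3b (−0.64) were lower, and Scn1a (0.10), which serves inhibitory neurons, was not called. Calcium channels were lower for the presynaptic Cacna1a (−0.23) and Cacna1b (−0.30) and the low-threshold Cacna1g (−0.31), Cacna1h (−0.50) and Cacna1i (log2 fold change = −0.47, FDR = 2.15e-05), and not called for the L-type Cacna1c (−0.14) and Cacna1d (0.00).

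Activity-regulated genes varied widely from mouse to mouse. Of 30, 4 were lower (13.3%, against 13.5% of all genes) and 0 higher (against 14.8%), and 27 of the 30 log2 fold changes were negative (median −0.31). Arc, which is induced by synaptic input, lay between 547 and 3401 in TG mice (median 1137), against 1176 to 4704 in WT mice with a median of 2726 (log2 fold change = −0.79, SE 0.463, FDR = 0.21). Fos ran between 141 and 769.7 in TG mice (median 331), against 135 to 981 in WT mice with a median of 609 (log2 fold change = −0.53, SE 0.438, FDR = 0.403). Both had ranges within each group that exceeded the difference between the medians. Egr4 (log2 fold change = −1.08, FDR = 0.00559) and the prohormone convertase Pcsk1 (log2 fold change = −0.46, FDR = 0.00891) were lower. Npas4 (log2 fold change = −1.27, FDR = 0.024) was not called without TG mouse 5 or WT mouse 4 (FDR up to 0.0599), and Egr3 (log2 fold change = −0.57, FDR = 0.045) without TG mouse 1, 2, 3, 4, 6 or 7 or WT mouse 3, 4, 5, 6 or 8 (FDR up to 0.097); 2 of the 30 genes were lower without WT mouse 4, and 6 without TG mouse 1 and WT mouse 1 together (median −0.49). Bdnf, a growth factor for synapses, ranged between 254 and 434 in TG mice (median 302), against 205 to 383 in WT mice with a median of 260.1 (log2 fold change = 0.24, SE 0.142, FDR = 0.21).

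Neuropeptide and secretory granule genes moved both ways, with 5 of 26 higher and 7 lower (median −0.10). Igf1, a growth factor that microglia also make, lay between 125 and 231 in TG mice (median 178), against 61.5 to 102 in WT mice with a median of 95.4 (log2 fold change = 0.95, SE 0.134, FDR = 9.3e-08). Cpe, an enzyme that trims prohormones, ran between 45255 and 55184 in TG mice (median 50865), against 36245 to 46079 in WT mice with a median of 39305 (log2 fold change = 0.35, SE 0.0778, FDR = 0.000398), and the granins Scg2 (log2 fold change = 0.35, FDR = 0.0216) and Scg3 (log2 fold change = 0.22, FDR = 0.000563) were higher. The convertases Pcsk1 and Pcsk2 (log2 fold change = −0.48, FDR = 0.00284), Vgf (log2 fold change = −0.50, FDR = 0.0262), Chga (−0.32) and Crym (−0.65) were lower. Npy (−0.14), Tac1 (−0.08), Penk (−0.59) and Pdyn (−0.70) were not called. The cyclic AMP response element, TGACGTCA on both strands, was found before 4 of 19 of these genes (21.1%) against 1.77% of all promoters. Of the 4, Sst and Pcsk1 were lower, Scg2 was higher and Chgb (0.04) was not called.

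Metabolic groups changed by small amounts. Oxidative phosphorylation genes were lower in 10 of 47 and higher in 0 (median −0.11). With library size alone 2 were higher and 2 lower, so the direction of this list depended on the scaling. With RIN as a covariate 18 were lower. In the fits without a covariate, 6 were lower without TG mouse 2, WT mouse 3 or WT mouse 5. Ndufa8, a subunit of complex I, ranged between 1086 and 1297 in TG mice (median 1134), against 1249.7 to 1648 in WT mice with a median of 1377 (log2 fold change = −0.25, SE 0.0698, FDR = 0.00383). Cox8a, of complex IV, lay between 2416 and 3291 in TG mice (median 2851), against 3107 to 5468 in WT mice with a median of 3448, and without WT mouse 3, which held the highest value, it was not called (FDR = 0.0529).

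Cholesterol synthesis was lower in 17 of 24 genes and higher in 0 (median −0.34). Hmgcs1, a synthase early in the route, ran between 2380.4 and 2953 in TG mice (median 2615), against 3323 to 4035 in WT mice with a median of 3606 (log2 fold change = −0.46, SE 0.0633, FDR = 4.13e-08). Cyp51, a demethylase later in the route, ranged between 579 and 809 in TG mice (median 669), against 848 to 977 in WT mice with a median of 942 (log2 fold change = −0.47, SE 0.0701, FDR = 3.46e-07). The groups were apart in both. Further members along the route were lower, from Mvk (−0.46) and Fdps (−0.43) to Sqle (−0.39), as were the controlling factor Srebf2 (−0.42) and Cyp46a1 (−0.42), with which neurons export cholesterol. Idi1 (−0.10), Lss (−0.10), Sc5d (−0.05) and Dhcr7 (−0.15) were not called. By contrast Abca1, which loads cholesterol onto Apoe, was higher, between 1086 and 2073 in TG mice (median 1636), against 657 to 861 in WT mice with a median of 769 (log2 fold change = 1.12, SE 0.124, FDR = 2.72e-10). A sterol element, TCACNCCAC on both strands, was found before 1 of 18 of these genes (5.56%, Hmgcs1) against 1.22% of all promoters.

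Chaperones of the endoplasmic reticulum moved both ways (5 of 26 higher, 6 lower, median −0.04, and 0.04 with library size alone). Hspa5, the main chaperone inside the reticulum, lay between 2689.8 and 3289 in TG mice (median 3039), against 3437 to 4302 in WT mice with a median of 3908 (log2 fold change = −0.34, SE 0.0922, FDR = 0.00315). Calr, which folds glycoproteins, ran between 3818 and 4283 in TG mice (median 4099), against 4811 to 6236 in WT mice with a median of 5351 (log2 fold change = −0.41, SE 0.0658, FDR = 1.53e-06). Pdia6 (log2 fold change = −0.38, FDR = 1.61e-05) and Hyou1 (log2 fold change = −0.31, FDR = 0.000117) were lower as well. Of the stress sensors Eif2ak3, the kinase PERK, ranged between 485 and 583 in TG mice (median 516), against 366 to 436 in WT mice with a median of 414 (log2 fold change = 0.37, SE 0.0647, FDR = 7.87e-06). A further sensor, Ern1 or IRE1α (0.27), the co-chaperone Dnajc3 (log2 fold change = 0.27, FDR = 0.00027), Edem1 (log2 fold change = 0.55, FDR = 6.87e-07), which sends misfolded glycoproteins to degradation, and the transcription factor Ddit3 (log2 fold change = 0.27, FDR = 0.00607) were higher. Atf6 (−0.01), the remaining sensor, Atf4 (−0.09) and Xbp1 (−0.06) were not called.

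The stress response element of these genes was searched as CCAAT and CCACG 9 bases apart, on both strands. It was found before 7 of 22 members (31.8%) against 0.13% of all promoters. Of the 7, Hspa5, Calr and Pdia6 were lower, Dnajc3 was higher and Hsp90b1 (−0.10), Canx (0.08) and Creld2 (−0.09) were not called. The windows of the 4 called genes are shown because they hold the same element and moved both ways, in GRCm38.p6 (Hspa5, chr2:34772000-34772068, plus strand; Calr, chr8:84847050-84847118, minus strand; Pdia6, chr12:17266466-17266534, plus strand; Dnajc3, chr14:118937802-118937870, plus strand), with the element in capitals, on the opposite strand in Calr:
Hspa5: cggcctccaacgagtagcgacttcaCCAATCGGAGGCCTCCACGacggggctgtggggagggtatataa
Calr: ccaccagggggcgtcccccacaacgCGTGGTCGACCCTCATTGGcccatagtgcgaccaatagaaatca
Pdia6: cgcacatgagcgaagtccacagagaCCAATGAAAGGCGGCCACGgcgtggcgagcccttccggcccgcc
Dnajc3: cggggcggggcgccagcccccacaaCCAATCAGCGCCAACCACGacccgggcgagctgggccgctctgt

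Cytosolic heat shock proteins were mostly not called (5 of 24 higher, 1 lower or, without WT mouse 1, 2 lower, median −0.03, and 0.06 with library size alone). Hspb8, a small heat shock protein, lay between 282 and 541 in TG mice (median 350.5), against 90.5 to 199 in WT mice with a median of 150.2 (log2 fold change = 1.36, SE 0.168, FDR = 4.85e-09), and Bag3, with which it sends proteins to autophagy (log2 fold change = 0.92, FDR = 1.98e-07), Hspb6 (log2 fold change = 1.15, FDR = 1.41e-07), Cryab (log2 fold change = 0.49, FDR = 0.000298) and the co-chaperone Dnajb2 (0.19) were higher. The inducible Hspa1a ran between 25.1 and 46.5 in TG mice (median 43.8), against 23.6 to 70.6 in WT mice with a median of 37.8 (log2 fold change = 0.05, SE 0.203, FDR = 0.891), and Hspb1 (0.21), Hspa8 (−0.13), Hsp90aa1 (0.05) and Hsf1 (−0.01) were not called.

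Genes near variants linked to Alzheimer's disease were higher in 15 of 30 and lower in 2, or in 4 without TG mouse 1 (median 0.23). The higher ones included genes of microglia, which besides Trem2 were Cd33 (log2 fold change = 1.40, FDR = 4.78e-10), Plcg2, Inpp5d (log2 fold change = 1.14, FDR = 2.13e-09), Abi3 (log2 fold change = 0.93, FDR = 1.35e-05) and Ms4a6d (log2 fold change = 1.61, FDR = 2.86e-07). Picalm (log2 fold change = 0.30, FDR = 1.73e-06), Frmd4a (log2 fold change = 0.23, FDR = 0.00261), Clu, Apoe and Abca1 were higher too. Pld3, a lysosomal exonuclease abundant in neurons, was lower, between 5919 and 7368 in TG mice (median 6359), against 9351 to 11555 in WT mice with a median of 10121 (log2 fold change = −0.64, SE 0.0739, FDR = 4.64e-10). App was lower (log2 fold change = −0.21, FDR = 0.0142), a call lost with library size alone (FDR = 0.113). Bin1 (−0.05), Sorl1 (−0.09), Psen2 (−0.18), Ptk2b (−0.20) and Mef2c were not called.

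Further genes that the study names for this line included higher and lower ones. Mpeg1, a pore-forming protein of macrophages, ranged between 1611 and 2960.2 in TG mice (median 2350.2), against 336 to 639 in WT mice with a median of 427 (log2 fold change = 2.45, SE 0.195, FDR = 2.09e-14). Msn, which ties membrane to actin (log2 fold change = 1.06, FDR = 5.13e-10), the TNF receptor Tnfrsf1a (log2 fold change = 1.23, FDR = 1.1e-08), the tetraspanin Cd63 (log2 fold change = 1.14, FDR = 1.94e-10) and the carbonic anhydrase Car4 (log2 fold change = 0.95, FDR = 8.41e-08) were higher. Cbx6, a Polycomb protein, lay between 3832 and 4888 in TG mice (median 4184), against 5851 to 7372 in WT mice with a median of 6557 (log2 fold change = −0.60, SE 0.0721, FDR = 1.36e-09), and Fbxl16 (log2 fold change = −0.70, FDR = 2.12e-07), the flippase Atp9a (log2 fold change = −0.51, FDR = 9.82e-08), the endocytic adaptor Epn1 (log2 fold change = −0.52, FDR = 3.56e-06), the signalling adaptor Ywhag (log2 fold change = −0.37, FDR = 3e-05), Faim2 (log2 fold change = −0.37, FDR = 0.000167), which protects neurons from cell death, the phosphatase scaffold Ppp2r1a (log2 fold change = −0.32, FDR = 0.000334), Rab3a (log2 fold change = −0.36, FDR = 8.92e-05) and Atxn7l3 (log2 fold change = −0.51, FDR = 7.01e-08) were lower. Gpr17, of newly formed oligodendrocytes, was not called (log2 fold change = 0.15, FDR = 0.218) and was called with library size alone. Because the study chose these genes on these mice, their directions are no independent evidence.

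**Figure D3:**
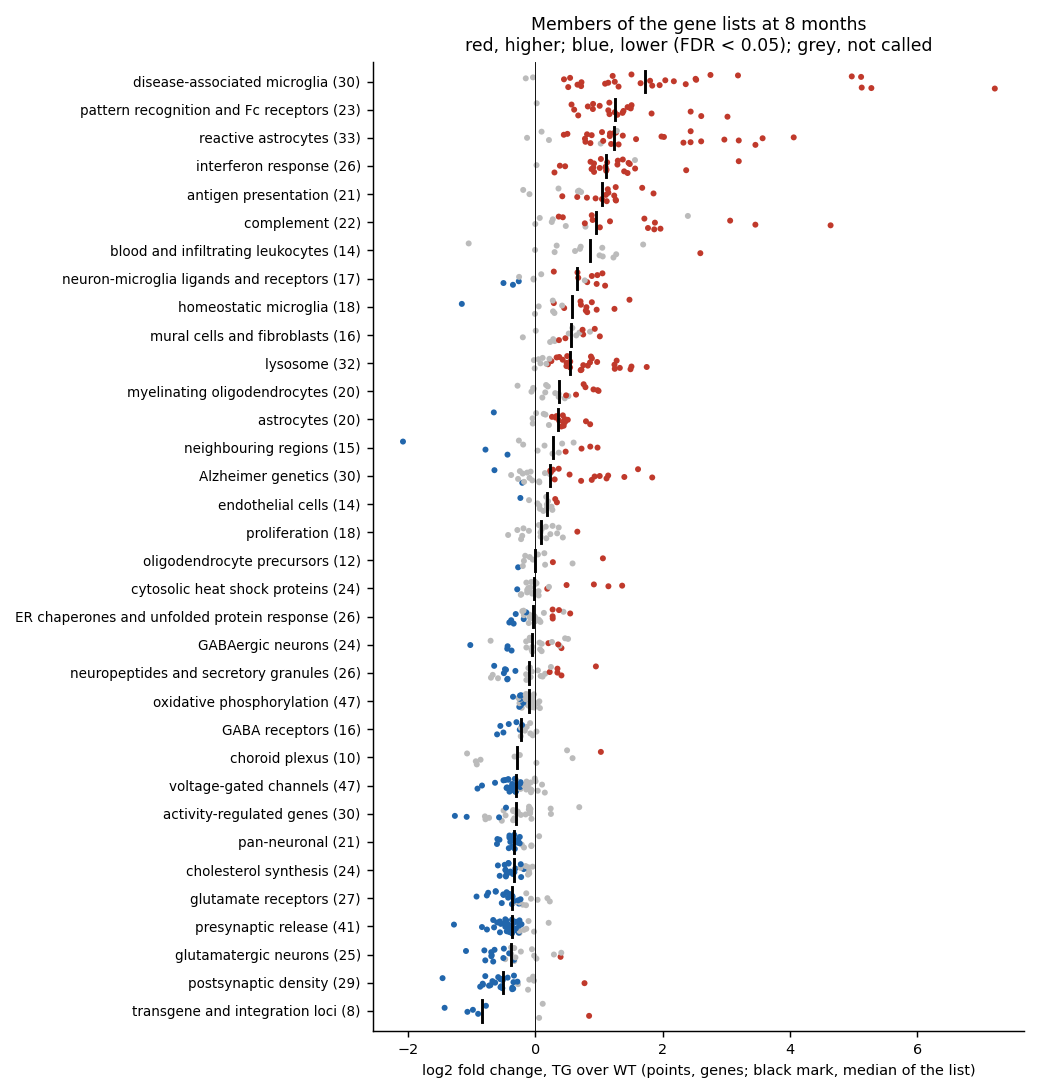
Log2 fold change of TG over WT mice at 8 months (x axis) for each tested member of the 34 gene lists (rows, with the number of members tested in brackets), in red where higher, blue where lower (FDR under 0.05) and grey where not called; the black mark is the median of the list. Disease-associated microglia have the highest median (1.73) and the transgene and integration loci the lowest (−0.84), followed by the postsynaptic density (−0.51).

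The mice of each group differed in how far they had moved. The level of a list in a mouse was taken as the median, over its members, of the log2 difference from the WT mean. For disease-associated microglia it ran from 1.13 to 2.09 in TG mice and from −0.11 to 0.21 in WT mice. Postsynaptic density levels ran from −0.71 to −0.30 in TG mice and from −0.09 to 0.08 in WT mice. Both lists therefore separated the groups completely. Most of their members were called between these same mice, and the lists were chosen with earlier results known, so this separation is no further evidence. TG mouse 6 had the lowest TG level for disease-associated microglia, complement (0.52), antigen presentation (0.57), interferon response (0.55) and reactive astrocytes (0.79), and the TG level nearest to WT for pan-neuronal (−0.18), glutamatergic (−0.26) and presynaptic (−0.27) genes. WT mouse 5 had the highest WT level for disease-associated microglia, complement (0.50), antigen presentation (0.72), interferon response (0.26) and reactive astrocytes (0.34), so that its antigen presentation exceeded that of TG mouse 6. It was not an extreme WT mouse for pan-neuronal or glutamatergic genes. Without WT mouse 5, 18 of the 21 antigen presentation genes were higher and the median of complement was 1.30, and without TG mouse 6, 14 of the 22 complement genes were higher.

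**Figure D4:**
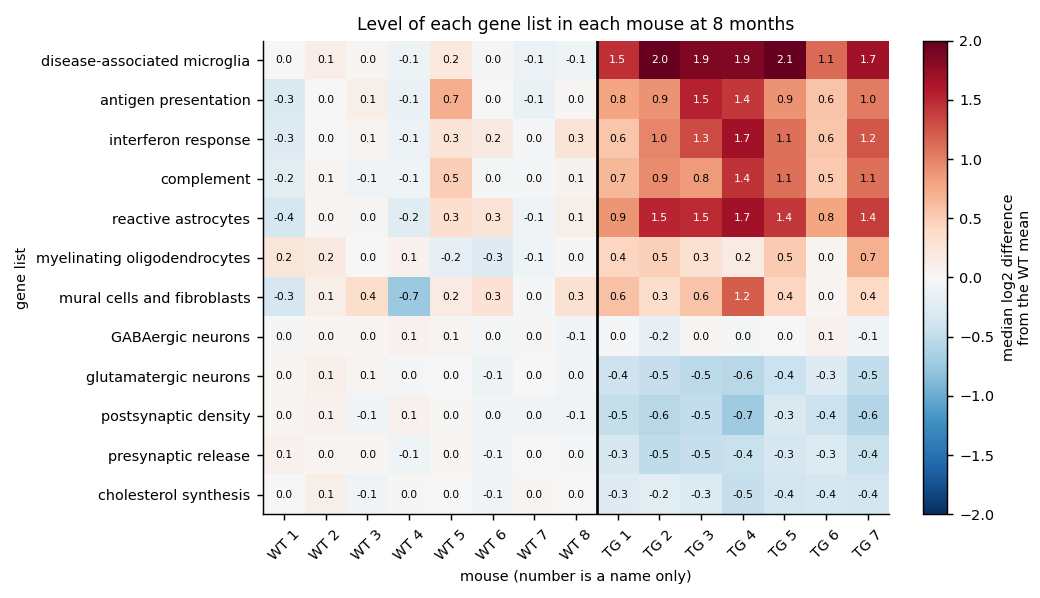
Level of 12 gene lists (rows) in each of the 8 WT and 7 TG mice (columns; the number only names a mouse), as the median log2 difference of the members from the WT mean, in colour and as a printed value. TG mouse 6 has the palest TG column for the glial lists, WT mouse 5 has 0.72 for antigen presentation, and TG mouse 4 has 1.21 for mural cells and fibroblasts.

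The 8-month state was then compared with that at 6 months, where 6 TG and 7 WT mice of the line had been sequenced, by testing the difference between both genotype effects. At an FDR under 0.05 this difference was called for 2 of 18943 genes (0.0106%), both with a more negative effect at 8 months. At an unadjusted p under 0.05, edgeR gave a more positive log2 fold change at 8 months for 823 genes and a more negative one for 1102. DESeq2 called 1 and 46, but its own filter on mean counts left an adjusted p for 2417 genes only, and Hrh3 and Doc2a had none (unadjusted p = 8.65e-08 and 9.27e-08). Hrh3, the histamine receptor that limits release of histamine and other transmitters, ran at 8 months between 445 and 563 in TG mice (median 497), against 958 to 1315 in WT mice with a median of 1109, and at 6 months from 506 to 1049 in TG and from 773 to 1172 in WT mice. The groups overlapped at 6 months and not at 8 months, and the log2 fold change at 8 months differed from that at 6 months by −0.91, SE 0.168, FDR = 0.0135. Doc2a, a calcium sensor of spontaneous release, ran at 8 months between 314 and 401 in TG mice (median 362), against 393 to 616 in WT mice with a median of 561, and at 6 months from 489.7 to 553 in TG and from 449 to 551 in WT mice (difference of the log2 fold changes −0.62, SE 0.115, FDR = 0.0135). In edgeR, neither gene was called when the sample ID's letter entered as a replicate block (FDR = 0.0618 for both), and Doc2a was not called with library size alone (FDR = 0.0706). Next in order on this side, without a call, came Tmem91 (−0.87, SE 0.189, FDR = 0.0976), Mpped1 (−0.45, SE 0.099, FDR = 0.0976) and Sele (FDR = 0.0976), an endothelial adhesion molecule at 0 to 1.01 normalized counts in TG mice and at 26 in WT mouse 5, against 0 to 1.98 in the other 7 WT mice, at 8 months. On the other side, also without a call, came Dtna (0.41, SE 0.0924, FDR = 0.107), of the dystrophin complex, Gbp11 (1.61, SE 0.401, FDR = 0.181), an interferon-induced GTPase, Gm4532 (2.15, SE 0.535, FDR = 0.181), Tab2 (0.31, SE 0.0773, FDR = 0.185), a relay of inflammatory receptors, and Btbd7 (0.43, SE 0.111, FDR = 0.185).

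Members of several lists differed between both ages mostly in 1 direction, though Doc2a was the one member called. Of the 2802 genes higher at 8 months 2322 had a larger log2 fold change than at 6 months, and of the 2554 lower genes 2399 had a more negative one; these genes were chosen at 8 months, so such a lean comes with the choice. The lists, too, were chosen with earlier results known. Interferon response genes had a higher log2 fold change at 8 months in 24 of 26 (median difference 0.39) and reactive astrocyte genes in 28 of 33 (0.31). Homeostatic microglial genes had a lower log2 fold change than at 6 months in 17 of 18 (−0.29), and the list's median went from 0.88 at 6 months to 0.58. For disease-associated microglia 18 of 30 had a lower one (median difference −0.03), although the list's median went from 1.56 at 6 months to 1.73. On the neuronal side, the log2 fold change was more negative for 37 of 41 presynaptic genes (−0.20) and 26 of 29 postsynaptic genes (−0.21), whereas it was higher for 19 of 30 activity-regulated genes (0.25), whose median went from −0.50 to −0.31, and for 13 of 24 GABAergic markers (0.06). Of the metabolic lists, it was more negative for 23 of 24 cholesterol genes (−0.27) and 46 of 47 oxidative phosphorylation genes (−0.13). Over all genes the median difference was 0.00. Members of a list share their mice and vary together, and no test was made over lists.

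**Figure D5:**
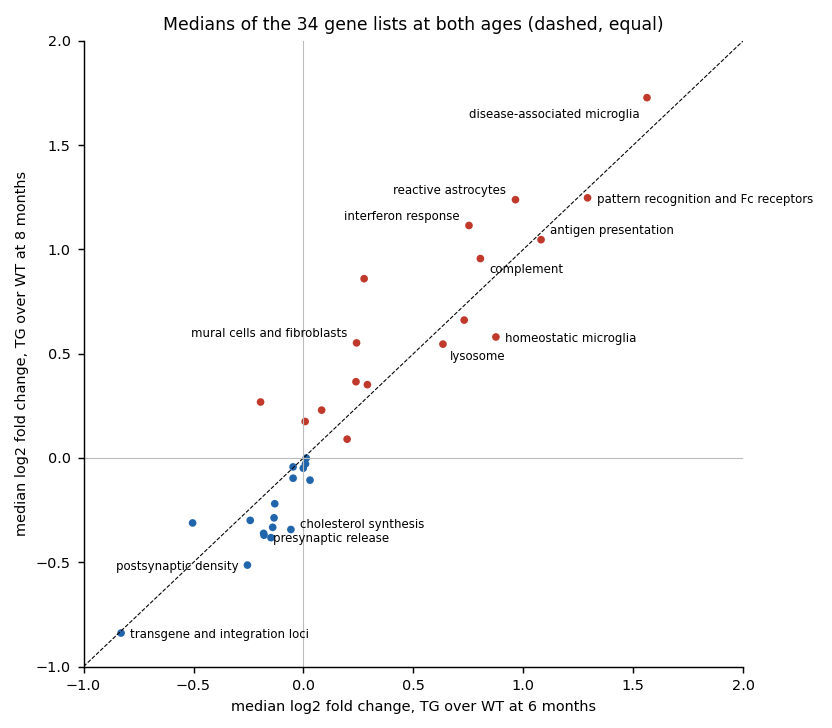
Median log2 fold change of TG over WT mice for each of the 34 gene lists at 6 months (x axis) and at 8 months (y axis), red where the 8-month median is above 0 and blue where it is below; the dashed line marks equal values. Interferon response and reactive astrocytes lie above the line, and homeostatic microglia lie below it at 0.88 and 0.58.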

How the data were processed

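RNA-seq counts of the 15 rTg4510 mice at 8 months were analysed. The authors prepared stranded mRNA libraries, sequenced them as paired ends on a HiSeq2500, aligned the reads to mm10/GRCm38.p4 by STAR and used featureCounts for the gene counts; R 3.4.3 and DESeq2 1.16.1 are named in the submitters' processing notes. The deposited values are raw counts for 23337 genes, and how reads shared by gene copies were treated is not given in the sources used here.

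Counts of the 59 mice of the line were fitted together in edgeR 4.0.16 (R 4.3.3) with TMM factors, genes with at least 6 counts in total (18943), group means by genotype and age, and robust quasi-likelihood F tests. P-values were adjusted over all genes tested (Benjamini-Hochberg, threshold 0.05). The SE is the log2 fold change divided by the square root of F. The comparison with 6 months tested the difference of both genotype effects in the same fit. Normalized counts are counts divided by the DESeq2 1.42.0 size factors of the 59 mice. Each library is 1 mouse, so p-values measure the spread between mice. Total counts limit precision at low counts: of 4370 genes under 10 normalized counts in both groups 251 were called, against 5105 of the other 14573. The test steps were first run on simulated data.

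Genes named are the 10 largest changes in each direction (called, groups apart, mean of at least 50), up to 4 members of each list and direction with the smallest p, members whose value a sentence needed, the genes the study names for this line, and the 5 smallest p in each direction for 8 against 6 months. These rules, the members and the lists were chosen with earlier results of these data known. Some genes that these rules pick are counted in their lists but not reported here by name. Of the list members 11 were found under an older symbol through RefSeq. Alternatives were DESeq2, its size factors, library size alone, no filter, filterByExpr, a replicate block, RIN as a covariate, no robust estimation, a threshold of 0.01, fits of the compared ages alone and leaving out each mouse; leaving out both letter K mice was added after seeing the data. Sequences came from RefSeq promoters (GRCm38.p6), and only the 250 bases before each start were searched. Figures were drawn with matplotlib 3.10.9.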

Additional observations from a re-analysis of the deposited data

Results flagged for a closer look

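In the groups of 7 or 8 mice, 27 of 374 sets of values (7.22%) held a mouse far from the others by Dixon's ratio, where chance flags about 1 in 20. All values below are normalized counts, and their causes were not tested. WT mouse 5 stood above the other WT mice for the complement genes C3 (22.7), C4b (828), C1qb (920) and C1qc (758), the class I genes H2-D1 (1320) and H2-K1 (602), the receptors Fcgr3 (223), Tlr1 (9.73), Cd14 (69.2) and Cd22 (10.8), and Tyrobp (344). Among the other WT mice, mouse 6 was high for Oasl2 (48.3), mouse 3 for Cox8a (5470) and Cox5b (2450), mouse 1 for Fgf14 (444) and mouse 2 for Mcm3 (100), and mouse 4 was low for Cd200 (1220). TG mouse 6 was low for B2m (1190) and Xaf1 (163). TG mouse 4 was high for Acta2 (755), Myh11 (652) and Gpr101 (59) and low for Atxn7l3 (2530). TG mouse 5 was high for Camk2a (42900) and Kcnab2 (6440), and TG mouse 1 for Lamp5 (940) and Ncapg2 (60).

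By a test of the difference itself, the genotype effect at 8 months was more negative than at 6 months for Hrh3 (−0.91 on the log2 scale, edgeR FDR = 0.0135) and Doc2a (−0.62, edgeR FDR = 0.0135). When the sample ID's letter entered as a replicate block, neither was called (edgeR FDR = 0.0618 for both).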

How the results depend on the processing

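The 8-month comparison kept both its sides under every alternative run. Calls were 2703 higher and 2803 lower with DESeq2, 2674 and 2689 with its size factors, 2768 and 2474 with no filter, 2745 and 2669 with filterByExpr, 2687 and 2528 with RIN, 2814 and 2566 with no robust estimation, and 3013 and 2500 with the ages compared alone. Library size alone gave 4047 and 1551, and a threshold of 0.01 gave 1850 and 1695. Leaving out 1 mouse gave 2401 to 2833 higher and 2280 to 2617 lower, and leaving out both letter K mice 2547 and 2348.

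For 8 against 6 months (0 higher, 2 lower), DESeq2 called 1 and 46, the ages compared alone 1 higher, library size alone 1 lower, and the replicate block and the threshold of 0.01 each 0 lower; leaving out 1 mouse of 8 months gave 0 higher and 2 lower in each case. TG and WT mice that share the letter of the sample ID were not paired by the labels: 4 of 7 pairs correlated above 0.1 in their deviations (mean 0.20, against −0.03 for other letters), and with that letter as a replicate block 2850 genes were higher and 2628 lower at 8 months.

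Of 187 genes named by the rules 185 were called, 162 of them under every setting, and 0 changed direction among called values. The difference in total counts between the groups was the same to 3 digits when summed over the genes tested alone (7.77%, exact permutation test, p = 0.21). Genes under 10 normalized counts are limited by depth.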
